A study of Drosophila melanogaster with 4 samples.

Results

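The ionotropic receptors (Irs) are a family of chemosensory ion channels, described here across 4 dual-colour arrays that set RNA bound by the splicing factor dASF/SF2 against a control. The family was taken as every probe annotated with exactly 1 gene symbol made of "Ir" and a digit. This gave 52 probes for 51 genes, of 15744 probes listed and 13147 with 1 symbol, and RefSeq holds 66 genes with such a symbol. The family was proposed with earlier results of these arrays known, because it lay off the centre of the array, so its values are a description and carry no test as a family.

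RNA was immunoprecipitated (IP) with anti-GFP antibody from Drosophila melanogaster third-instar larvae of a pair of transgenic lines. Both lines carried GMR, a driver of the differentiating eye, and a transgene under it. One expressed GFP fused to dASF/SF2, an SR protein that guides splice site choice. The control line expressed GFP-NLS, a GFP directed to the nucleus. Each extract pooled the front ends of 600 larvae, so it could hold brain, eye and antennal discs, mouth parts and other tissues, while the tagged protein is made where GMR is active. Every array set one IP against the other. On 2 arrays dASF/SF2 was labelled with Cy5 (the Cy5 arrays), and on the others with Cy3 (the Cy3 arrays), with 1 array of each kind in each of 2 replicates.

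Irs descend from the ionotropic glutamate receptors of synapses and work as complexes of co-receptors with a tuning receptor that sets which chemical is sensed. Antennal receptors, conserved among insects, serve smell, humidity and temperature sensing, and divergent receptors are found mostly in taste neurons. In larvae these neurons lie in the dorsal, terminal and ventral organs at the front of the head and in the pharynx, and their receptor transcripts are generally rare. A ratio array shows no level, so it does not tell whether a receptor's RNA was present in either IP, nor can markers tell which tissues an extract held.

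The deposited value is a log ratio whose base and numerator are not stated, so no fold is given. Values are printed after each array was centred on its median. The dye-swapped arrays of replicate 1 correlated with a Pearson r of 0.236 across all 12847 probes measured on 4 arrays, and those of replicate 2 with -0.054. Over the 10850 of these probes with 1 gene symbol, the kind the family is made of, the values were 0.169 and -0.565. The pairs differed in sign over both sets, so they did not settle the direction of the ratio. Over probes with 1 symbol, the Cy5 array of replicate 1 and the Cy3 array of replicate 2 had an r of -0.305. The Cy5 array of replicate 2 and the Cy3 array of replicate 1 had -0.12. The Cy5 arrays had 0.53 with each other, and the Cy3 arrays 0.287. Over all probes these values were -0.219, -0.069, 0.435 and 0.264 in the same order. The direction of the ratio was not tested. Means were therefore taken in both ways. The unturned mean is the comparison of the IPs if the values are ratios of one IP to the other. The turned mean, with the sign of the Cy3 arrays reversed, is that comparison if they are ratios of one dye to the other. Under either reading, the other mean holds a difference between the dyes and not between the IPs. SF2, the gene of the transgene, had -0.092 and -0.245 on the Cy5 arrays of replicates 1 and 2 and 0.224 and 0.339 on the Cy3 arrays. Nothing but the replicate number says that replicates came from separate larvae, so the spread behind the p-values may be technical.

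Most receptors lay above the array median on 3 of the 4 arrays. A value on all 4 arrays was available for 36 family probes of 35 genes, 69.2% of those listed against 81.6% of all probes. The family median was 0.195 and 0.103 on the Cy5 arrays of replicates 1 and 2, 0.086 on the Cy3 array of replicate 1 and -0.042 on the Cy3 array of replicate 2. Of the 36 probes, 32, 31, 25 and 13 were above 0 on these arrays in the same order. The last array thus stood apart from the others, with most receptors below its median. The corresponding medians over all probes were -0.005, 0.001, 0.004 and 0.009.

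**Figure D1:**
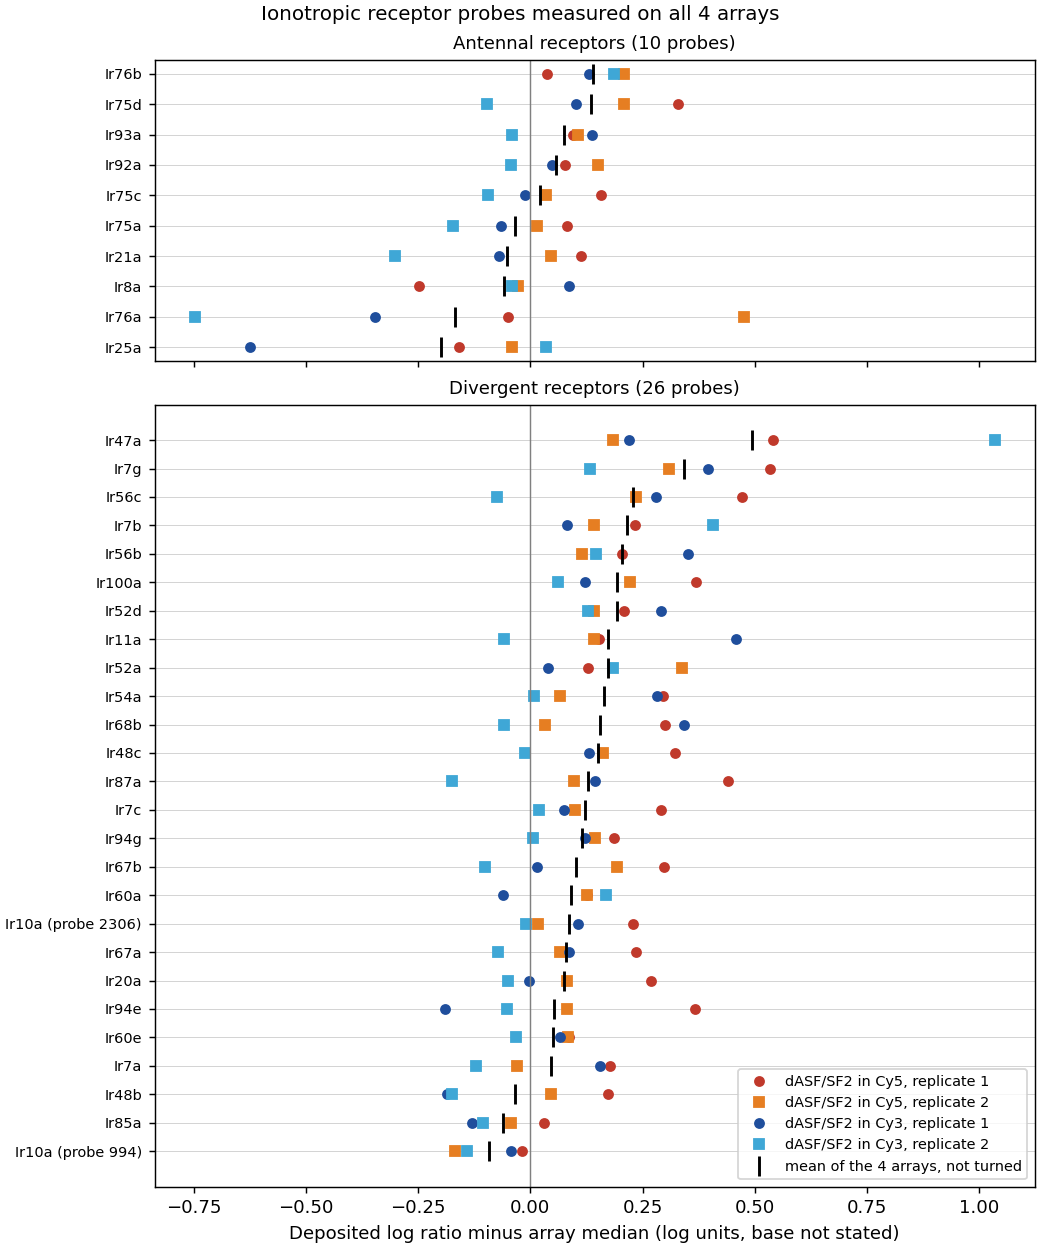
Centred log ratio (horizontal axis, log units of unstated base) of each of the 36 Ir probes measured on all 4 arrays, with antennal receptors above and divergent receptors below. Circles are replicate 1 and squares replicate 2, red and orange are the Cy5 arrays, dark and light blue the Cy3 arrays, and black bars the unturned mean; the light blue squares lie left of the other symbols for 24 of the 36 probes, and Ir47a, at 1.034 on that array, is the clearest exception.

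Unturned, the median of the 36 probe means was 0.096 ± 0.085 (SD of the 2 replicate medians), against 0.008 for all probes. The means of 28 probes were above 0 and those of 8 were below it, where 53.2% of all probes had a mean above 0. The replicates differed: the family median was 0.156 in replicate 1 and 0.035 in replicate 2. The unturned median was 0.061 without the Cy5 array of replicate 1 (40 family probes) and 0.060 without that of replicate 2 (36 family probes). Turned, the median was 0.059 ± 0.006 (SD, n = 2), against 0.004 for all probes. The turned medians of replicates 1 and 2 were both higher, at 0.075 and 0.066. Turned means of 28 probes were above 0 and those of 8 below it, with 51.3% of all probes above 0. The turned median was -0.013 without the Cy5 array of replicate 1 (40 family probes) and 0.040 without that of replicate 2 (36 family probes). It was 0.116 without the Cy3 array of replicate 1 (38 family probes). Its sign thus changed without the first of these arrays, where the set of probes changed as well. With all 4 arrays the family median was thus above 0 in both ways of averaging.

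No member passed the test across all probes in either way of averaging. In limma's moderated test with Benjamini-Hochberg adjustment, 0 of 36 family probes had an adjusted p under 0.05, unturned or turned, against 0% of all probes in both. At an unadjusted p under 0.05 in the same test, 3 family probes were positive and 0 negative when unturned, against 2.13% and 3.44% of all probes. Turned, 1 was positive and 0 were negative, against 9.57% and 13.6% of all probes. The members were selected on this contrast, so these counts are given as they are and support nothing.

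The 3 co-receptors did not share a pattern. Ir25a, which pairs with many tuning receptors of smell, taste, temperature and humidity, had -0.160 and -0.042 on the Cy5 arrays of replicates 1 and 2, and -0.625 and 0.034 on the Cy3 arrays. Its unturned mean, -0.198 ± 0.275 (SD, n = 2), was the lowest of the family, and was -0.082 without the Cy3 array of replicate 1 and -0.314 without the Cy5 array of that replicate. Its turned mean was 0.097 ± 0.191, smaller than its spread, and was -0.099 without the Cy3 array of replicate 1.

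Ir8a, the co-receptor of acid-sensing receptors, had -0.248 and -0.027 on the Cy5 arrays and 0.086 and -0.041 on the Cy3 arrays. Its means were -0.058 ± 0.033 unturned and -0.080 ± 0.123 turned, and the unturned value was 0.026 without the Cy5 array of replicate 1. Ir76b, a co-receptor in amine, amino acid and salt sensing, was above 0 on every array, with 0.036 and 0.209 on the Cy5 arrays and 0.130 and 0.186 on the Cy3 arrays. It was the one antennal-type member with 1 sign on all 4 arrays unturned, at 0.140 ± 0.081 (adjusted p = 0.752 in limma), and its turned mean was -0.018 ± 0.041.

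Among tuning receptors of the antennal type, Ir76a varied most. Ir76a, which responds to phenylethylamine with Ir25a and Ir76b, had -0.050 and 0.475 on the Cy5 arrays and -0.347 and -0.748 on the Cy3 arrays. Both Cy3 arrays were below both Cy5 arrays, and its turned mean of 0.380 ± 0.327 (adjusted p = 0.149 in limma) was the highest of the family, with 105 of all 12847 probes higher. It is the 1 family probe at an unadjusted p under 0.05 when turned. Its unturned mean of -0.168 became 0.138 without the Cy3 array of replicate 2.

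Of the Ir75 group, 3 genes had values on all 4 arrays. Ir75a, the acetic acid receptor, had 0.081 and 0.015 on the Cy5 arrays and -0.065 and -0.173 on the Cy3 arrays. Ir75c, which senses propionic acid, had 0.157 and 0.034, then -0.012 and -0.094. Both therefore had 1 sign on all 4 turned arrays, with turned means of 0.084 ± 0.015 for Ir75a and 0.074 ± 0.014 for Ir75c, and adjusted p-values of 0.490 and 0.538 in limma. Ir75d, a receptor of coeloconic olfactory neurons, had 0.329, 0.209, 0.102 and -0.096 on the same arrays, so it lacked 1 sign on the turned arrays. Its turned mean was 0.133 ± 0.028, and was 0.025 without the Cy5 array of replicate 1 and 0.241 without the Cy3 array of that replicate. Leaving out single arrays gave turned means from 0.044 to 0.123 for Ir75a and from 0.038 to 0.110 for Ir75c. The unturned means of Ir75a, Ir75c and Ir75d were -0.035 ± 0.062, 0.021 ± 0.072 and 0.136 ± 0.112, and the sign changed for Ir75a without either Cy3 array and for Ir75c without either Cy5 array.

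Ir21a and Ir93a, which serve temperature or humidity sensing, differed in sign pattern. Ir21a, the cool receptor of the larval dorsal organ, had 0.113 and 0.046 on the Cy5 arrays and -0.069 and -0.302 on the Cy3 arrays. Its turned mean was 0.132 ± 0.059, with 1 sign on all 4 turned arrays (adjusted p = 0.308 in limma), and its unturned mean was -0.053 ± 0.106. Ir93a, needed with Ir25a for cool and dry sensing, had 0.095 and 0.105 on the Cy5 arrays and 0.138 and -0.040 on the Cy3 arrays. It lay on the positive side of 3 arrays, with an unturned mean of 0.074 ± 0.059 and a turned mean of 0.026 ± 0.066. Ir92a, the receptor behind ammonia attraction, had 0.078, 0.150, 0.049 and -0.043, with the same signs as Ir93a and means of 0.058 ± 0.007 unturned and 0.056 ± 0.058 turned. Its unturned mean was 0.010 without the Cy5 array of replicate 2 and 0.107 without the Cy3 array of that replicate.

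The divergent receptors carried the high unturned values. Their 26 probes with 4 values had medians of 0.233 and 0.107 on the Cy5 arrays and 0.113 and -0.022 on the Cy3 arrays. The 10 antennal-type probes had 0.080 and 0.076, then 0.019 and -0.068, so the divergent median was the higher on each of the 4 arrays. Unturned means were above 0 for 23 of 26 divergent and 5 of 10 antennal-type probes. In replicates 1 and 2 the unturned medians were 0.167 and 0.044 for divergent probes and 0.043 and -0.017 for antennal-type probes. The difference of the unturned medians, divergent minus antennal, was 0.132 ± 0.044 (SD of the 2 replicates), larger than in either replicate. It was 0.052 when 47 family probes with at least 1 array in each replicate were used. It was 0.041 without the Cy5 array of replicate 1 and 0.043 without the Cy3 array of replicate 2, each over 40 family probes. Probes that lacked a value only on the omitted array came in there, so the array and the set of probes changed together. On the turned scale the order was the other way, at -0.025 ± 0.012, further from 0 than in either replicate. The turned difference was 0.041 and 0.039 without the Cy3 arrays of replicates 1 and 2, over 38 and 40 family probes.

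Ir47a stood highest. This divergent receptor had 0.541 and 0.184 on the Cy5 arrays and 0.219 and 1.034 on the Cy3 arrays. All 4 values were positive, and its unturned mean of 0.494 ± 0.162 (adjusted p = 0.752 in limma) was exceeded by 8 of the 12847 probes. Without the Cy3 array of replicate 2 it was 0.282. Its turned mean was -0.132 ± 0.414, with replicates of opposite sign at 0.161 and -0.425.

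Ir7g and Ir7b, of the group of receptor genes named for the same band of the X chromosome, followed the same sign pattern. Ir7g had 0.533 and 0.308 on the Cy5 arrays and 0.395 and 0.132 on the Cy3 arrays, and its unturned mean was 0.342 ± 0.173, with 65 probes of the array higher. Ir7b had 0.232, 0.141, 0.082 and 0.407, and an unturned mean of 0.215 ± 0.083. Both had an adjusted p of 0.752 in limma, and with Ir47a they are the 3 probes at an unadjusted p under 0.05. Their turned means were 0.078 ± 0.013 for Ir7g and -0.029 ± 0.147 for Ir7b. Neither turned mean kept its sign when single arrays were left out: Ir7g ranged from -0.154 without the Cy5 array of replicate 1 to 0.310 without the Cy3 array of that replicate, and Ir7b from -0.166 without the Cy5 array to 0.108 without the Cy3 array of replicate 2. Of the other members of the group, Ir7a, linked to the taste of acetic acid, was the lowest at 0.045 ± 0.170 unturned, and Ir7c, needed for the taste of high salt, had 0.121 ± 0.087 with all 4 arrays positive.

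In all, 10 of the 26 divergent probes had 4 positive values, against 7.15% of all probes. Besides Ir47a and the Ir7 group, these were Ir56b, Ir100a, Ir52d, Ir52a, Ir54a and Ir94g. The 3 with the largest unturned means of these are given here. Ir56b, which acts in salt taste, had 0.203 and 0.114 on the Cy5 arrays and 0.352 and 0.146 on the Cy3 arrays, and an unturned mean of 0.204 ± 0.104. Ir100a had 0.369, 0.222, 0.121 and 0.062, with a mean of 0.194 ± 0.073. Ir52d, known from male taste neurons of the foreleg, had 0.209, 0.141, 0.290 and 0.129, with a mean of 0.192 ± 0.081. Each of these 3 was positive in both dye orientations and both replicates, with an adjusted p of 0.752 in limma. If the values are ratios of one dye to the other, such a pattern compares the dyes and not the IPs. Their turned means were -0.045 ± 0.041, 0.102 ± 0.031 and -0.017 ± 0.033, and none of the 3 kept its sign when each array was left out in turn. Ir100a was at -0.020 without the Cy5 array of replicate 1, and Ir56b and Ir52d were at 0.094 and 0.108 without the Cy3 array of replicate 1.

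**Figure D2:**
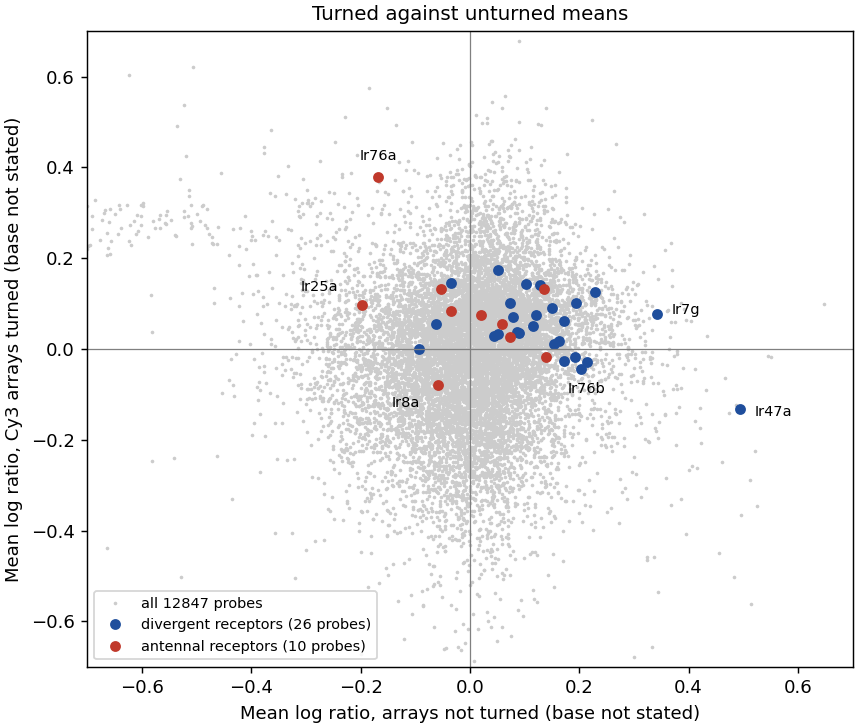
Unturned mean (horizontal axis) against turned mean (vertical axis) of each probe measured on all 4 arrays, in log units of unstated base; grey points are all probes, blue the 26 divergent and red the 10 antennal-type receptors. Receptors lie mostly right of 0 and slightly above it, with Ir47a at the far right (0.494) and Ir76a at the top (0.380); 137 probes, none of the family, fall outside the plotted range.

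A smaller group of divergent receptors differed in sign between the dye orientations. Ir94e, a receptor of labellar taste neurons, had 0.367 and 0.082 on the Cy5 arrays and -0.190 and -0.053 on the Cy3 arrays. Ir48b had 0.173 and 0.046, then -0.186 and -0.174. Ir20a, a taste receptor that acts with Ir76b in amino acid sensing, had 0.269 and 0.081, then -0.004 and -0.050. These 3 divergent probes were positive on all 4 turned arrays, with turned means of 0.173 ± 0.149, 0.145 ± 0.049 and 0.101 ± 0.050 and adjusted p-values of 0.257, 0.268 and 0.422 in limma. With Ir21a, Ir75a and Ir75c they made 6 family probes positive on all 4 turned arrays, against 12.1% of all probes, and 0 negative, against 16.1%.

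Ir10a was the 1 family gene with more than 1 probe. Its 2 probes gave unturned means of -0.093 ± 0.087 and 0.086 ± 0.116. The first was below 0 on all 4 arrays, with -0.019, -0.168, -0.043 and -0.141, and the second had 0.229, 0.017, 0.106 and -0.009. That first probe was the 1 family probe negative on all 4 unturned arrays. The turned means of the probes were -0.001 ± 0.018 and 0.037 ± 0.034. The value of Ir10a is uncertain, since its probes differed in sign.

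Groups of receptor genes that share a band number spread to different extents. Unturned means ran from 0.045 (Ir7a) to 0.342 (Ir7g) over 4 members of the Ir7 group and from -0.035 (Ir75a) to 0.136 (Ir75d) over 3 of the Ir75 group. In each of the other groups 2 members at most had 4 values. The Ir76 group ran from -0.168 for Ir76a to 0.14 for Ir76b, and the Ir48 group from -0.035 (Ir48b) to 0.151 (Ir48c). Closer were 0.172 and 0.192 for Ir52a and Ir52d, 0.204 and 0.228 for Ir56b and Ir56c, and 0.079 and 0.102 for Ir67a and Ir67b. Ir94e and Ir94g had 0.052 and 0.115, and Ir60e and Ir60a had 0.051 and 0.09. For scale, the median absolute difference of unturned means was 0.114 over the 594 pairs of family genes that are not neighbours in RefSeq. Whether members of a group were closer than other pairs was not tested. Ir56b and Ir56c, which are neighbours in RefSeq, were close unturned but had turned means of -0.045 ± 0.041 and 0.126 ± 0.041. The remaining divergent probes with 4 values (Ir11a, Ir54a, Ir68b, Ir85a and Ir87a) had unturned means from -0.062 for Ir85a to 0.173 for Ir11a.

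The signs of the family concentrated in few patterns. With the arrays in the order Cy5 of replicates 1 and 2, then Cy3 of replicates 1 and 2, 12 of 36 probes were positive on the first 3 and negative on the last, 11 were positive on all 4, and 6 were positive on both Cy5 and negative on both Cy3 arrays. Over all probes these patterns held 11.6%, 7.15% and 12.3%. Because the family was proposed for lying off the centre, these shares describe it and support nothing. Among odorant receptors 8 of 41 probes were also positive on all 4 arrays, and among gustatory receptors 4 of 36. The pattern most common over all probes, negative on both Cy5 and positive on both Cy3 arrays (16.1%), had 0 family members. One family probe was negative on all 4 arrays, against 6.45% of all probes with a value below 0 on each.

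**Figure D3:**
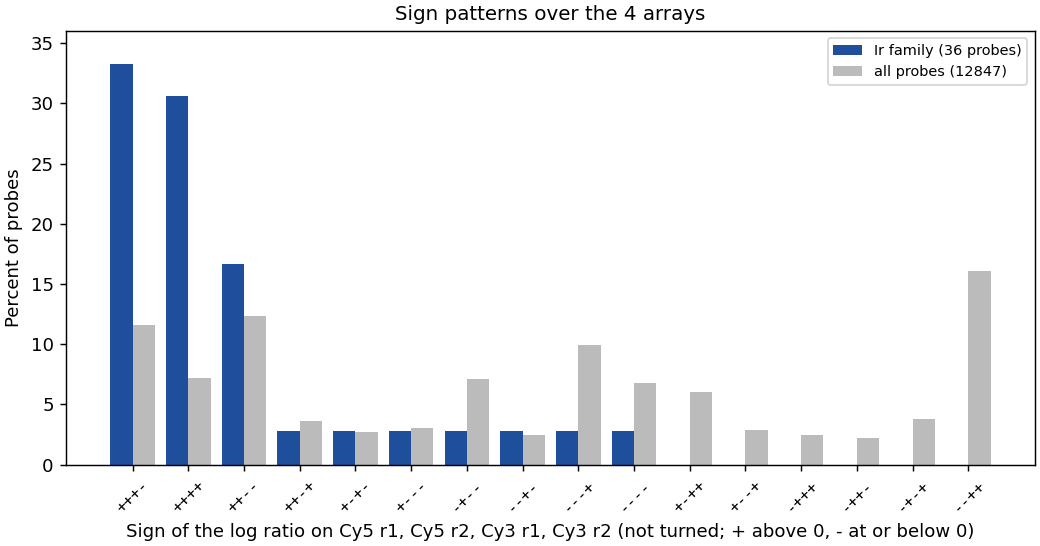
Percent of probes (vertical axis) with each pattern of signs over the 4 unturned arrays, for the 36 Ir probes (blue) and all 12847 probes (grey). The patterns +++- and ++++ hold 33.3% and 30.6% of the family, against 11.6% and 7.15% of all probes.

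Over the 36 probes the arrays correlated with each other above 0 in every pair, from a Pearson r of 0.025 for the dye-swapped arrays of replicate 2 to 0.531 for those of replicate 1. These are descriptions over probes that share the same arrays. Over all probes with 1 symbol the same pairs had -0.565 and 0.169. These family values moved without the members at the extremes: leaving out Ir47a and Ir76a (34 probes remaining) gave 0.469 and 0.482. Other pairs moved both ways. The Cy5 array of replicate 1 with the Cy3 array of replicate 2 fell from 0.374 to 0.048, and the Cy3 arrays from 0.349 to 0.202. The Cy5 arrays rose from 0.337 to 0.55, and the Cy5 array of replicate 2 with the Cy3 array of replicate 1 from 0.169 to 0.424.

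Olfactory and gustatory receptors lay near the Irs. Odorant receptors (41 probes with 4 values) had medians of 0.161 and 0.054 on the Cy5 arrays and 0.103 and -0.021 on the Cy3 arrays, and an unturned median of 0.082 ± 0.075. Gustatory receptors (36 probes) had 0.124, 0.128, 0.040 and -0.023, and an unturned median of 0.061 ± 0.030. In both families the Cy3 array of replicate 2 was again the lowest. The Ir median minus that of odorant receptors was 0.034, 0.049, -0.017 and -0.021 on the 4 arrays, and minus that of gustatory receptors 0.071, -0.025, 0.046 and -0.019, so neither difference kept 1 sign.

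Other families of sensory proteins and channels differed from the Irs in unturned median. Odorant-binding proteins (43 probes), secreted carriers of odorants, had an unturned median of -0.008 and a turned median of 0.059, equal to that of the Irs. The ppk sodium channels (16 probes) had -0.046 unturned and 0.049 turned. The ionotropic glutamate receptors (9 probes), the closest relatives of the Irs, lay opposite on the Cy5 arrays, with -0.175 and -0.086, and had -0.020 and 0.054 on the Cy3 arrays. Their unturned median was -0.099 ± 0.048, with 3 probes above 0 and medians of -0.098 and -0.029 in replicates 1 and 2. Their turned median was -0.016 ± 0.021, while the turned medians of replicates 1 and 2 were lower, at -0.078 and -0.107. The Ir median exceeded theirs on 3 arrays, by 0.370, 0.189 and 0.106, and was 0.096 lower on the Cy3 array of replicate 2, and this difference between lists was not tested.

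**Figure D4:**
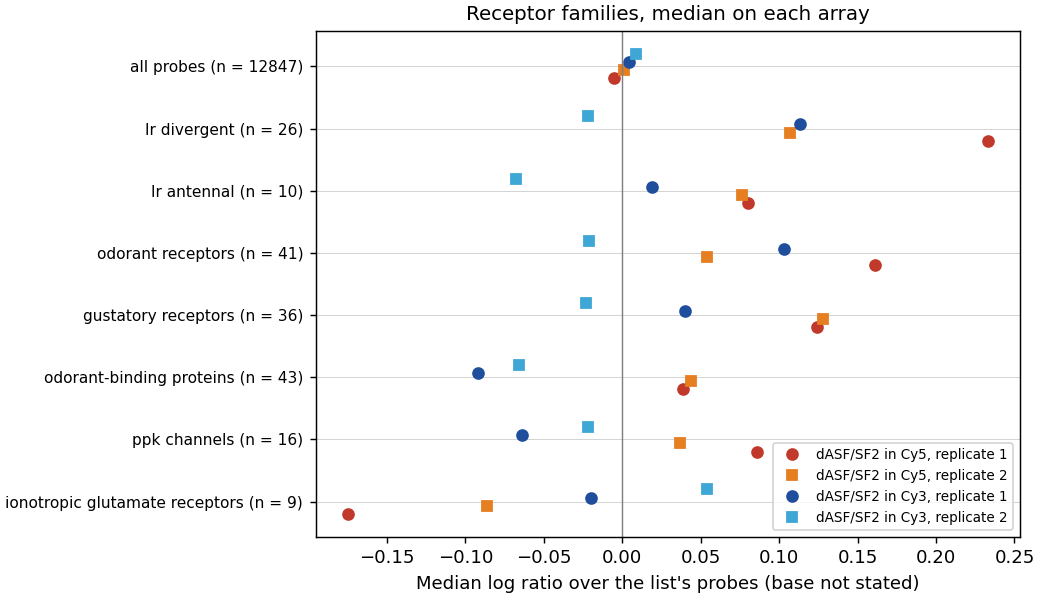
Median centred log ratio (horizontal axis, log units of unstated base) of each receptor family on each array, with the number of probes in brackets. Symbols are as for the single receptors; the Irs, odorant receptors and gustatory receptors have the Cy3 array of replicate 2 (light blue squares) below 0 and the other arrays above it, and the glutamate receptors have the reverse.

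Markers of the cells that could carry these receptors were measured beside them. Neuronal markers (9 probes with 4 values) had medians of -0.020, 0.197, 0.036 and 0.017 on the 4 arrays in the same order, with 6 of 9 unturned means above 0. Markers of ciliated sensory neurons (8 probes), the cell class in which Irs are expressed, had 0.090, 0.024, 0.084 and -0.055, with 6 of 8 unturned means above 0. The medians of this second list had the signs of the Ir medians on all 4 arrays, at smaller or like sizes. On the Cy5 array of replicate 2, however, 4 of its 8 probes were above 0, and 14 of its probes were listed. Glial markers (8 probes) had 0.165, 0.234, -0.039 and -0.326, with 4 of 8 unturned means above 0. Unturned medians of the neuronal, ciliated and glial lists were 0.084 ± 0.109, 0.096 ± 0.089 and -0.001 ± 0.050 (SD of the 2 replicate medians). Turned, they were 0.058 ± 0.057, 0.044 ± 0.031 and 0.239 ± 0.081, so the glial list was the highest of the 3. The part of any of these cell types in the receptor values was not tested. A ratio of IPs does not tell apart differences in the number of cells, in RNA per cell, or in RNA bound to the tagged protein.

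The remaining 16 family probes lacked a value on at least 1 array, and 11 of the 16 were divergent. On 3 arrays were Ir31a, Ir40a, Ir64a, Ir68a, Ir84a, Ir51b, Ir52b, Ir56a, Ir56d and Ir94b, on 2 were Ir67c and Ir94f, and on 1 were Ir52c, Ir94a, Ir94c and Ir94h. Of the Ir94 group, 7 genes were listed and 2 had 4 values. Family values were missing from 13.5%, 7.69%, 15.4% and 13.5% of probes on the 4 arrays, against 5.51%, 2.63%, 12.3% and 7.16% of all probes. On each array the share of missing values was larger in the family than over all probes, a difference that was not tested. On the Cy3 array of replicate 2 a further 6 family values were exactly 0, and with zeros counted as missing 13 of 52 family probes (25.0%) lacked a value there, against 12.3% of all probes.

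Several incomplete members had sizeable values where they were measured. Ir40a, a receptor of dry air sensing, had 0.620 and 0.224 on the Cy5 arrays and 0.315 on the Cy3 array of replicate 1. Ir84a, which links food odours to male courtship, had 0.394 and 0.093, then 0.643. Ir64a, an acid sensor that works with Ir8a, was negative on the same 3 arrays, at -0.094, -0.187 and -0.023. None of the 3 had a value on the Cy3 array of replicate 2, so no mean over all arrays is given.

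Ir68a, of moist air sensing, had 0.153 and -0.028 on the Cy5 arrays and -0.052 on the Cy3 array of replicate 2. Ir56d, which takes part in the taste of fatty acids and carbonation, had 0.140 and 0.083 on the Cy5 arrays and -0.440 on the Cy3 array of replicate 1. Ir52b had -0.103 on the Cy5 array of replicate 2, and 0.120 and -0.511 on the Cy3 arrays. The values of each of these 3 differed in sign between arrays. Ir94b had 0.151 on the Cy5 array of replicate 2 with 0.126 and -0.135 on the Cy3 arrays, and Ir94f had -0.108 and -0.374 on the Cy5 arrays. The single values of Ir94c and Ir94h, on the Cy5 array of replicate 1, were 0.116 and -0.007.

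Exact zeros touched 6 of the incomplete members. On the Cy3 array of replicate 2, Ir31a, Ir51b, Ir56a, Ir67c, Ir52c and Ir94a were deposited as exactly 0, and for Ir52c and Ir94a this was the only value. All 6 lacked a value on another array. Over the whole array 811 probes were exactly 0 there, and 79.9% of them lacked a value elsewhere, against 8.12% of the probes with another value. Such a 0 is therefore given as listed and not as a measured ratio of 1. Where measured otherwise, Ir31a, an antennal-type receptor, had -0.088 on the Cy5 array of replicate 2 and 0.302 on the Cy3 array of replicate 1, Ir51b had 0.259 and 0.582 on the same arrays, Ir56a had -0.155 and -0.055 on the Cy5 arrays, and Ir67c had 0.098 on the Cy5 array of replicate 2.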

How the data were processed

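RNA of dASF/SF2 and GFP-NLS IPs was compared on 4 two-colour arrays, grouped by dye orientation and replicate number from their titles. The values are the log ratios the authors deposited; how the authors computed and normalised them, and their base and numerator, is not given in the sources used here. Their columns, as the authors deposited them, had medians from 0 to 0.013. The marker -10000, in 73 cells, was read as missing, and no scanner signals were used, so the number of arrays limits the precision. Columns held 13815 to 15330 measured probes. Probes were named from GEO's platform annotation, and all 51 family genes matched RefSeq (Release 6) by Entrez identifier. Coordinates are left out because the array's genome build is unnamed.

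Arrays were centred on their medians. The arrays of a replicate number, dye swaps per the labels, were averaged, and the mean of 2 replicates was tested against 0 with limma 3.58.1 in R 4.3.3 (lmFit, eBayes) over the 12847 probes on all 4 arrays, adjusted by Benjamini-Hochberg with calls at 0.05. The test was also run on simulated data whose planted shifts were larger than every family mean, so that run does not cover shifts of the family's size. Deviations of same-numbered arrays from the mean of their orientation correlated at 0.339 unturned and -0.339 turned over all probes, and at 0.038 and -0.038 over probes with 1 symbol. Figures used matplotlib 3.10.9 in Python 3.11.15.

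Antennal-type receptors, the divergent ones with the largest mean of 1 sign on all 4 arrays (up to 6 a side), members with several probes or missing values, and the ends of gene groups were named. The members, marker lists and receptor families were chosen with earlier results of these data known. Alternatives were centring, scaling, value filters, zeros as missing, 1 value per gene, leaving out arrays, and the replicate block.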

Additional observations from a re-analysis of the deposited data

How the results depend on the processing

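The number of family probes called stayed at 0 under every alternative except that limma called 1, Ir76a (turned mean 0.479, adjusted p = 0.0425), without the Cy5 array of replicate 1. Leaving out single arrays gave 0 to 1 family probes called turned, 0 to 184 of all probes called turned, family medians from 0.060 to 0.140 unturned and from -0.013 to 0.116 turned, and a difference of divergent minus antennal medians from 0.041 to 0.137 unturned and from -0.061 to 0.041 turned. There the lone array of a replicate is assumed to vary like the mean of the other. The family held 36 to 40 probes in these settings, because the filter on missing values came after an array was left out. With the replicate block on 4 arrays limma called 1119 of all probes turned, where the correlation within a block was -0.408, and 0 unturned. With exact zeros as missing, or with 1 value per gene, limma called 3 turned. With 1 array per replicate enough, the family median was 0.051 turned and the difference of medians 0.052 unturned. Crossed pairing of the replicate numbers, chosen after seeing the data, called 153 of all probes unturned and 0 turned. For single named receptors, leaving out 1 array changed the sign in 10 of 84 unturned and 18 of 84 turned values and moved a further 28 and 33 by over 1.5 times. The other alternatives changed the sign in 1 and 4 of 189 and moved 2 and 4 by over 1.5 times. The causes were not tested. Signal over background was not analysed here, so the depth behind each ratio is unknown.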
